A study of Mus musculus with 42 samples.

Results

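The 9 genes examined encode the subunits of cohesin and were taken as a list: the 4 subunits used mainly in meiosis (Stag3, Rad21l, Rec8 and Smc1b) and the 5 used in dividing cells generally (Smc1a, Smc3, Rad21, Stag1 and Stag2). All 9 were among the 27179 genes of the count table, and all 9 were expressed highly enough to be tested in every comparison. RNA-seq was carried out on spermatogonia isolated by magnetic sorting from C57BL/6J male pups at 10 days post partum (dpp), with 3 libraries in each of 4 groups: Thy1+ and c-Kit+ cells from controls (Ddx4-Cre/Chd8+/F) and from mutants (Ddx4-Cre/Chd8F/-). The methods give 3 pups for each analysis and do not say whether a library came from 1 pup or from several. Both genotypes carried Ddx4-Cre, which is active in germ cells, so that somatic cells of the mutants kept 1 floxed Chd8 allele and the controls themselves were expected to retain 1 working Chd8 copy in the germline. Chromatin immunoprecipitation samples of the same series were not analysed here.

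Cohesin is a ring that holds sister chromatids together and shapes chromatin loops. Its core is a heterodimer of 2 SMC ATPases, closed by a kleisin subunit and bound by a STAG protein. Before and during meiosis, germ cells replace part of this machinery: SMC1B takes the place of SMC1A, REC8 and RAD21L take the place of the kleisin RAD21, and STAG3 takes the place of STAG1 and STAG2, whereas SMC3 is common to both forms. Meiotic cohesin forms the chromosome axis on which the synaptonemal complex assembles, and spermatogonia switch on its genes ahead of meiotic entry.

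The 4 meiotic subunit genes lie on different chromosomes and therefore do not share a promoter. Stag3 occupies chr5:138280509-138312393 on the plus strand, Rad21l chr2:151645404-151668533 on the minus strand, Rec8 chr14:55618166-55625395 on the plus strand and Smc1b chr15:85064689-85131957 on the minus strand (mm10). The exons of none of the 9 subunits overlapped those of another gene of the count table. The 250 bases before the annotated start of each meiotic subunit (RefSeq, GRCm38.p6, which is mm10) are given because these genes moved together in the comparisons that follow. They are chr5:138280259-138280508 for Stag3, chr2:151668534-151668783 for Rad21l, chr14:55617916-55618165 for Rec8 and chr15:85131958-85132207 for Smc1b, each written 5′ to 3′ in the direction of the gene. Capitals mark matches on either strand to CACGTG, to TTCCCGC and to TCTCGCGA, letters that were chosen after these sequences had been seen.
Stag3: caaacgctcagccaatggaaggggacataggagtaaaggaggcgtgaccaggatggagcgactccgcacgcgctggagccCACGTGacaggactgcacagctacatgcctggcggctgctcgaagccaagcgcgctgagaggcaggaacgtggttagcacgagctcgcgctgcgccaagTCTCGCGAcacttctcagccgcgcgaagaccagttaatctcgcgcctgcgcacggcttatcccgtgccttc
Rad21l: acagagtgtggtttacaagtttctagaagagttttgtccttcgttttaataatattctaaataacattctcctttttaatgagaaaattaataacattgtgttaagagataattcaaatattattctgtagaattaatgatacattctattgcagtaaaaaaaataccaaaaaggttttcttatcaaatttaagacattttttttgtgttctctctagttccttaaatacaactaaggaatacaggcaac
Rec8: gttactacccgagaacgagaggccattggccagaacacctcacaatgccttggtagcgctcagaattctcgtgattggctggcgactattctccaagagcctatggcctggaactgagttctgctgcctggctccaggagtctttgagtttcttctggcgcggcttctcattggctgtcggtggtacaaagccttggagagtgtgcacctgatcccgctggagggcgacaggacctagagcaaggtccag
Smc1b: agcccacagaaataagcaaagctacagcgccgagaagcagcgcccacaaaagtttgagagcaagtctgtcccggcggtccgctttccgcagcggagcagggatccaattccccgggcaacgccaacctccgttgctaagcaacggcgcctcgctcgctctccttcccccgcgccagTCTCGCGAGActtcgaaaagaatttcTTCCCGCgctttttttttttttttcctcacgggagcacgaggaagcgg

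The 4 windows differed in base composition. G and C made up 62.8% of the Stag3 window and 58.0% of the Smc1b window, which held 26 and 25 CpG dinucleotides. Rec8 had 56.0% G and C with 10 CpG, and Rad21l had 25.6% with 1 CpG. The medians over all 32851 windows of that length were 52.4% and 6 CpG, so the Rad21l window was the AT-rich one of the 4. CACGTG was found once, in Stag3, and in 6.02% of all windows. TCTCGCGA was found in Stag3 and, on both strands at overlapping positions, in Smc1b, and it was present in 0.858% of all windows. TTCCCGC was found in Smc1b 48 bases before the start and in 3.82% of all windows. The Rad21l and Rec8 windows held none of these letters. Of the 9 subunits, 7 had a window, and among the general subunits Stag1 held TTCCCGC.

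The libraries held 32266861 to 45396233 counted reads. Levels are given as CPM, the reads of a gene relative to the size of its library after TMM scaling, or as RPKM, which also divides by exon length, where different genes are compared. Thy1 was at 11.7 to 17.1 CPM in the Thy1+ libraries and at 0.436 to 1.07 CPM in the c-Kit+ libraries, and Kit was at 171 to 432 CPM in Thy1+ and at 626 to 782 CPM in c-Kit+ libraries, so the sort labels held in all 12. Chd8 itself was at 259 to 305 CPM in the controls and at 258 to 316 CPM in the mutants. These counts sum over all exons of Chd8, of which the floxed allele loses only a few, and they therefore do not test the deletion. Markers of somatic cells were present in every library. The summed CPM of 8 Sertoli cell markers ranged from 480.1 to 2602, and replicate 1 had the highest sum in Thy1+ controls, in Thy1+ mutants and in c-Kit+ controls. In bulk RNA of this kind, fewer cells of a type and less RNA per cell cannot be told apart.

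The level of each subunit was first placed in order within a group. In c-Kit+ controls, Rad21 was highest (134 ± 8.17 RPKM, SD, n = 3), followed by Stag3 (112 ± 20.6), Smc1b (98.7 ± 23.3) and Smc3 (74.7 ± 9.64), and each of these overlapped its neighbour across libraries. Stag1 (47.7 ± 2.65 RPKM) stood apart from those above and below it. Rad21l (25.5 ± 7.55 RPKM), Stag2 (24.0 ± 1.14), Rec8 (23.2 ± 2.89) and Smc1a (21.0 ± 2.03) were lowest, and neighbours in this order overlapped. The STAG and SMC1 subunits of the meiotic form thus exceeded their general counterparts in these cells on the RPKM scale, whereas the meiotic kleisins remained well below Rad21.

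In Thy1+ controls the order was Rad21 (123.1 ± 14.1 RPKM, SD, n = 3), Smc3 (66.3 ± 7.64), Stag3 (61.1 ± 16.6), Smc1b (49.7 ± 17.6), Stag1 (39.1 ± 4.38), Smc1a (30.9 ± 3.79), Stag2 (26.9 ± 0.194), Rec8 (14.2 ± 2.26) and Rad21l (10.9 ± 4.70). Neighbours from Smc3 to Stag1 overlapped, as did Smc1a with Stag2 and Rec8 with Rad21l. In c-Kit+ mutants the order was Rad21 (153.5 ± 12.1 RPKM, SD, n = 3), Smc3 (58.1 ± 1.82), Stag3 (51.1 ± 2.97), Smc1b (47.5 ± 1.76), Stag1 (40.5 ± 0.841), Stag2 (29.0 ± 1.51), Smc1a (22.5 ± 3.15), Rec8 (11.4 ± 0.920) and Rad21l (4.996 ± 1.09), and here only Stag3 and Smc1b overlapped. Thy1+ mutants had the lowest meiotic kleisins, with Rec8 at 6.47 ± 1.57 RPKM and Rad21l at 3.95 ± 1.055 RPKM (SD, n = 3). Their Stag1, Stag3, Smc1a, Smc1b and Stag2 levels lay between 29.5 and 35.4 RPKM on average, and each neighbouring pair overlapped.

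**Figure D1:**
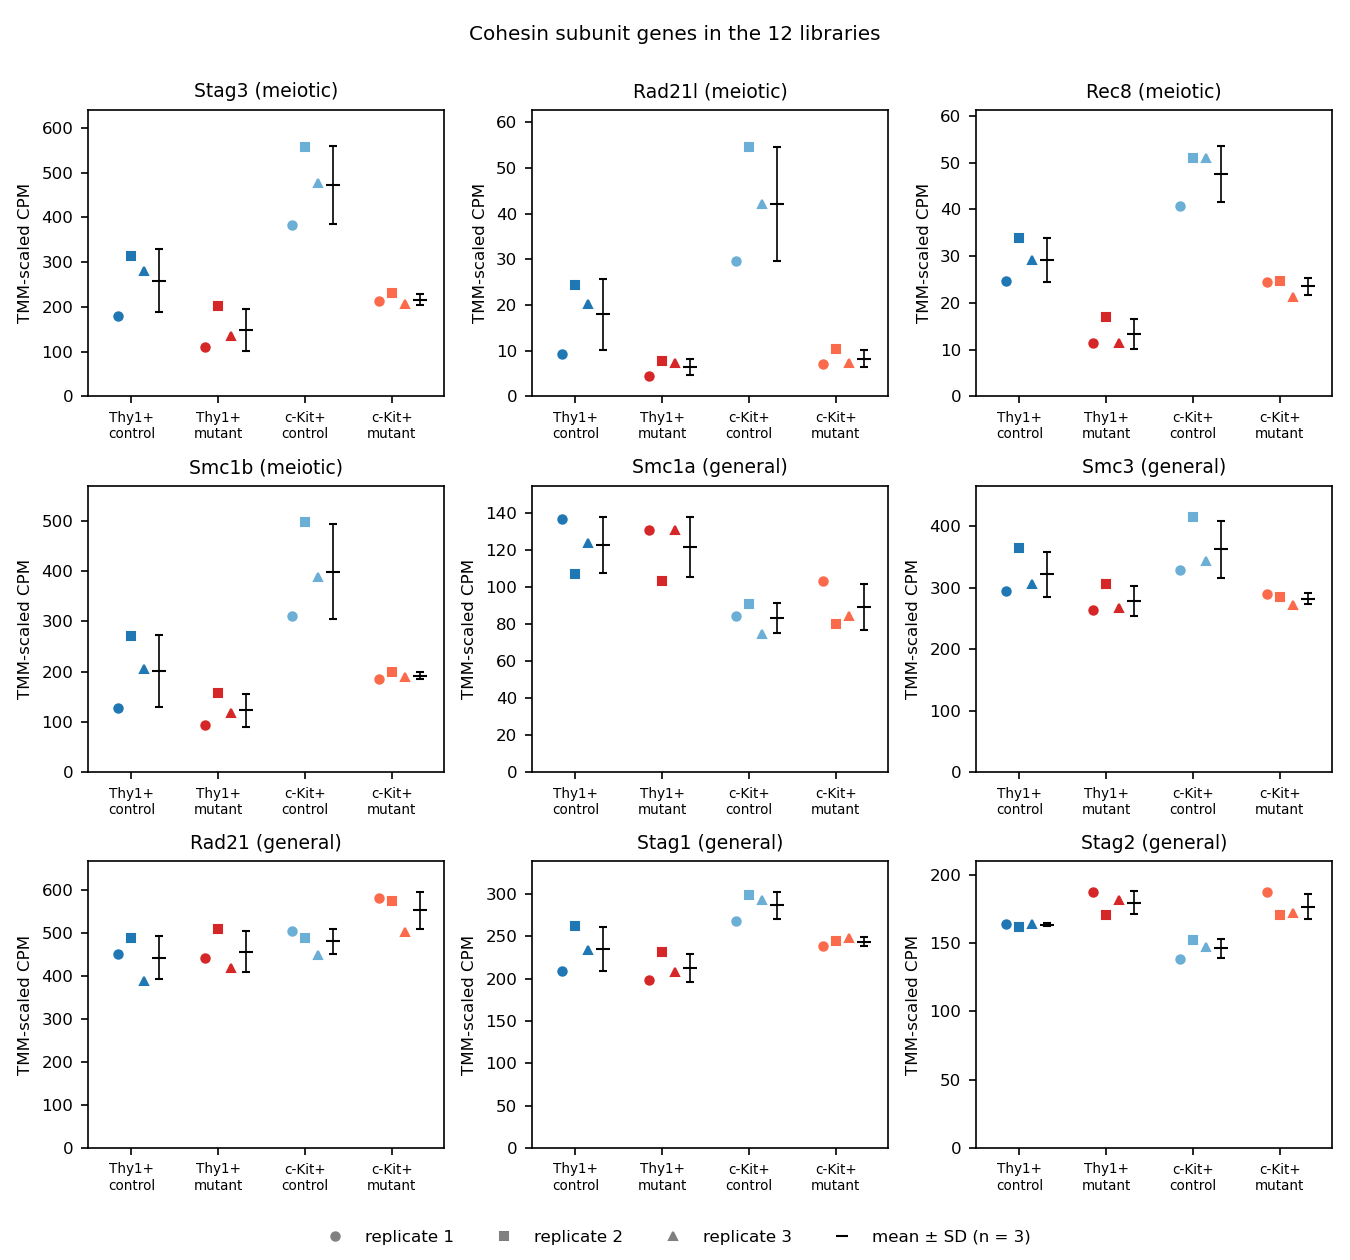
TMM-scaled CPM (vertical axes, from 0) of the 9 cohesin subunit genes in the 12 libraries, by group and replicate number, with the mean and SD of each group of 3. The 3 c-Kit+ mutant libraries lie below all 3 c-Kit+ controls for Stag3, Rad21l, Rec8 and Smc1b, whereas Smc1a and Rad21 overlap between genotypes in c-Kit+ cells.

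To ask which subunits differed with Chd8 genotype in the sorted c-Kit+ cells, c-Kit+ mutants were compared with c-Kit+ controls. All 4 meiotic subunits were lower in the mutants, by 2.11-fold to 5.29-fold, and none of the 5 general subunits was called. A gene was called at an adjusted p (FDR) below 0.05 and a log2 fold change beyond 0.5 in the quasi-likelihood test of edgeR, adjusted by the Benjamini-Hochberg method. Of the 17134 genes tested, 7.41% were called lower and 14.8% higher. The median log2 fold change was -1.15 over the meiotic subunits and 0.04 over the general subunits, against 0.01 over all genes tested.

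Rad21l encodes a kleisin of meiotic prophase I. It was at 29.6, 54.5 and 42.0 CPM in c-Kit+ control replicates 1 to 3 and at 7.17, 10.3 and 7.24 CPM in the mutants. Every mutant library was below every control, and the lowest control was still well above the highest mutant. The log2 fold change was -2.40 ± 0.22 (SE; edgeR FDR = 1.54e-04), the largest of the 9 subunits.

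Stag3, the STAG subunit of the meiotic complexes, was at 384, 558 and 476 CPM in the c-Kit+ controls and at 213, 229.9 and 205 CPM in the mutants. Smc1b, the meiotic SMC1 ATPase, was at 311, 498 and 388 CPM in the controls and at 186, 199.7 and 189.6 CPM in the mutants. In both genes the control libraries spread over a wider range than the mutant libraries, and control replicate 1, the control with the most Sertoli marker reads, was the lowest control. The log2 fold changes were -1.19 ± 0.12 (SE) for Stag3 and -1.11 ± 0.14 for Smc1b (edgeR FDR = 1.85e-04 and 3.49e-04).

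Rec8, the kleisin that holds sister centromeres together until the second meiotic division, was at 40.7, 51.0 and 51.1 CPM in the c-Kit+ controls and at 24.5, 24.7 and 21.3 CPM in the mutants. The genotypes did not overlap, and the mutants again spread over a narrower range than the controls. The log2 fold change was -1.08 ± 0.11 (SE; edgeR FDR = 2.09e-04). All 4 meiotic subunits remained called lower with each library left out in turn, with the replicate number as a block (7.51% of all genes) and with DESeq2 (7.74%). Groups that did not overlap in the lower direction were found for 20.6% of all genes tested.

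The general subunits moved less. Smc1a, the mitotic SMC1 ATPase, was at 84.4, 90.7 and 74.7 CPM in the c-Kit+ controls and at 103.6, 80.2 and 84.3 CPM in the mutants. Rad21, the mitotic kleisin, was at 507, 489.6 and 449 CPM in the controls and at 582, 575 and 503 CPM in the mutants. Both genes overlapped between genotypes, with log2 fold changes of 0.04 ± 0.11 (SE; edgeR FDR = 0.774) and 0.14 ± 0.07 (edgeR FDR = 0.142).

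Smc3, the ATPase shared by both forms of the ring, was at 329, 416 and 343 CPM in the c-Kit+ controls and at 289, 285 and 272 CPM in the mutants, with no overlap. Stag1 was at 268, 298 and 293 CPM in the controls and at 238, 245 and 248 CPM in the mutants, also with no overlap. Stag2, the X-linked STAG gene, was in the opposite direction, at 139, 153 and 147 CPM in the controls and at 187, 171 and 172 CPM in the mutants, again without overlap, as for 31.6% of all genes in the higher direction. These 3 genes passed the FDR alone, with log2 fold changes of -0.42 ± 0.09 (SE; edgeR FDR = 0.00350), -0.29 ± 0.06 (0.00396) and 0.22 ± 0.07 (0.0248), but not the minimum on the fold change. An FDR below 0.05 with no such minimum was reached by 18.3% of all genes in the lower and 20.8% in the higher direction. At an unadjusted p below 0.05 the general subunits gave 2 lower and 1 higher, against 22.6% and 25.2% of all genes, and neither DESeq2 nor the exact test of edgeR called any of the 5.

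**Figure D2:**
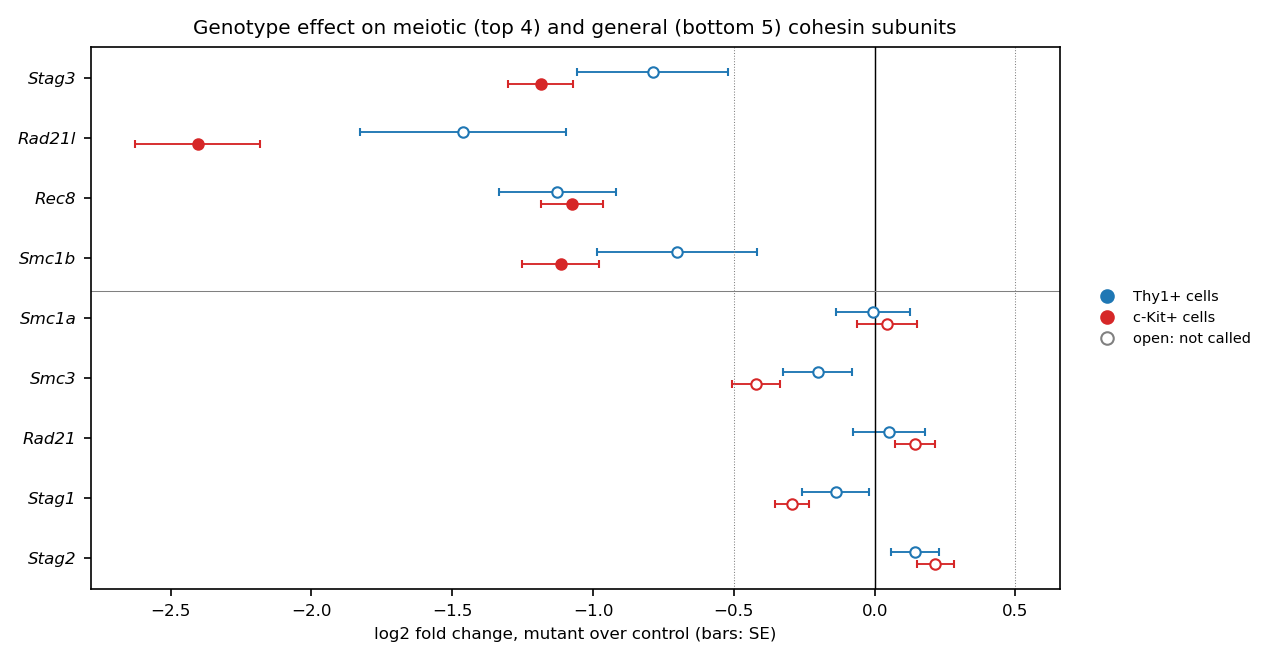
Log2 fold change of mutants over controls (horizontal axis, bars are SE) for the 9 subunits in Thy1+ and c-Kit+ cells, from edgeR's quasi-likelihood test. Filled points were called and dotted lines mark a log2 fold change of 0.5 in either direction. The 4 meiotic subunits lie between -0.70 and -2.40, and the general subunits between -0.42 and 0.22.

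Other germ cell and somatic markers moved with genotype in the same libraries. All 9 markers of meiotic spermatocytes (such as Sycp1, Dmc1 and Spo11) were called lower in c-Kit+ mutants, against 7.41% of all genes. Their summed level was 1010 to 1696 CPM in the controls and 448.3 to 497.6 CPM in the mutants. The sum of 5 general germ cell markers (Ddx4, Dazl, Mael, Tex14 and Tdrd1) was 2145 to 2550 CPM in the controls and 1659 to 1930 CPM in the mutants. Of these 5, 1 was called lower. At an unadjusted p below 0.05 in edgeR's quasi-likelihood test, 4 were lower, against 22.6% of all genes. All 8 Sertoli cell markers, all 6 stromal markers and all 5 endothelial markers were called higher in the mutants, against 14.8% of all genes. Their summed levels in controls and mutants were 541.1 to 1371 and 2169 to 2377 CPM for Sertoli cells, 1370 to 1678 and 2453 to 3184 CPM for stroma, and 50.05 to 69.52 and 103.8 to 164.2 CPM for endothelium. Not every list moved as a whole. Called higher were 4 of 6 Leydig, 3 of 5 peritubular myoid, 3 of 4 tested mast cell and 0 of 5 macrophage markers. Mast cell sums were 12.46 to 33.9 CPM in the controls and 42.04 to 59.55 CPM in the mutants. Of 5 markers of differentiating spermatogonia, 1 was called lower. Of 7 tested markers of undifferentiated spermatogonia, 1 was called lower and 1 higher. No marker of these lists was at 0 in all libraries of a c-Kit+ group.

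When the libraries were instead scaled to the summed counts of the 5 germ cell markers, the median over all genes moved from 0.01 to 0.41 on the log2 scale, and 2.42% of genes were called lower and 34.3% higher. The 4 meiotic subunits were still called lower with this scaling, with log2 fold changes of -2.00 for Rad21l, -0.78 for Stag3, -0.70 for Smc1b and -0.68 for Rec8. Rad21 and Stag2 were called higher at 0.53 and 0.61, close to that median. Smc3 was at -0.02 and Stag1 turned to 0.11, neither of them called. The part of a changed germ cell share in the values at TMM scaling was not tested further.

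In Thy1+ cells, the population that holds the undifferentiated spermatogonia, the same 4 genes were lower on average in mutants, by 1.63-fold to 2.75-fold. No gene of the 17416 tested was called in either direction by edgeR's quasi-likelihood test, and the lowest FDR of any gene was 0.141. At an unadjusted p below 0.05, all 4 meiotic subunits and none of the 5 general ones were lower, against 7.69% of all genes. With the replicate number as a block, since libraries of the same number deviated together, all 4 meiotic subunits and 4.92% of all genes were called lower. DESeq2 and edgeR's exact test each called 2 of the 4, Rad21l and Rec8, against 1.9% and 1.67% of all genes, and a fit of all 12 libraries called Rec8 alone, against 1.31%. The median log2 fold change was -0.96 over the meiotic subunits, -0.00495 over the general subunits and 0.02 over all genes tested.

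Rec8 was at 24.6, 33.8 and 29.1 CPM in Thy1+ control replicates 1 to 3 and at 11.4, 17.0 and 11.4 CPM in the mutants. Rad21l was at 9.35, 24.4 and 20.3 CPM in the controls and at 4.51, 7.64 and 7.39 CPM in the mutants. Neither gene overlapped between genotypes, which was the case for 10.7% of all genes in the lower direction. The log2 fold changes were -1.13 ± 0.21 (SE; edgeR FDR = 0.163, with the block 1.89e-06) for Rec8 and -1.46 ± 0.37 (edgeR FDR = 0.247, with the block 4.05e-06) for Rad21l.

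Stag3 was at 179, 314 and 281 CPM in the Thy1+ controls and at 111, 201.5 and 134 CPM in the mutants. Smc1b was at 127.8, 270.2 and 204 CPM in the controls and at 93.8, 158 and 117 CPM in the mutants. In both genes mutant replicate 2 was above control replicate 1, so the genotypes overlapped, yet each mutant was below the control of its own number. Between libraries of the same number, the log2 difference was -0.69, -0.64 and -1.07 for Stag3 and -0.45, -0.77 and -0.80 for Smc1b. The fitted log2 fold changes were -0.79 ± 0.27 (SE; edgeR FDR = 0.340, with the block 1.85e-06) for Stag3 and -0.70 ± 0.29 (edgeR FDR = 0.386, with the block 4.59e-06) for Smc1b.

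In Thy1+ cells, replicate 1 stood apart in its Sertoli cell markers but not in all somatic markers. Stromal sums were highest in replicate 3, at 10780 CPM in the control and 14300 CPM in the mutant. The Sertoli marker sum was 1980, 480.1 and 563.4 CPM in Thy1+ control replicates 1 to 3 and 2602, 931 and 1021 CPM in the mutants. Replicate 1 thus had the most Sertoli marker reads and the lowest summed level of the 4 meiotic subunits in both genotypes (340.9 CPM in the control and 220.7 CPM in the mutant). The part of these cells in the spread between libraries was not tested. Without both libraries of replicate 1, an alternative chosen after seeing the data, the log2 fold changes were -1.57 for Rad21l, -1.14 for Rec8, -0.82 for Stag3 and -0.78 for Smc1b, and the lowest edgeR FDR of the 4 was 0.0618. Other markers moved with genotype in these libraries. With the block, which called 4.92% of all genes lower, all 9 meiotic spermatocyte markers were called lower. Their sums were 434.4 to 815.7 CPM in the controls and 254.5 to 428.2 CPM in the mutants. Of 8 markers of undifferentiated spermatogonia (such as Gfra1, Ret and Zbtb16), 7 were called lower with the block, with sums of 572.2 to 821.4 CPM in the controls and of 383.1 to 458.7 CPM in the mutants. All 8 Sertoli cell markers were called higher with the block, against 3.2% of all genes. Smaller parts of other somatic lists were called higher with the block, with 1 of 6 stromal, 1 of 5 macrophage and 1 of 4 tested mast cell markers. The same held for 0 of 6 Leydig, 0 of 5 peritubular myoid and 0 of 5 endothelial markers. The mast cell markers had a median log2 fold change of 1.09 at low levels. Their sums were 2.193 to 4.285 CPM in the controls and 3.395 to 7.985 CPM in the mutants. Stromal sums were 8302 to 10780 CPM in the controls and 9356 to 14300 CPM in the mutants. The sums of the 5 general germ cell markers overlapped, at 1338 to 1960 CPM in the controls and 998.9 to 1630 CPM in the mutants, and 1 of the 5 was called lower with the block. The part of these changes in the subunit values was not tested.

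Scaling the Thy1+ libraries to the germ cell markers moved the median over all genes from 0.02 to 0.40 and left the meiotic subunits at log2 fold changes of -1.06 for Rad21l, -0.78 for Rec8, -0.45 for Stag3 and -0.32 for Smc1b, none of them called. Without Thy1+ control replicate 2, Smc1b was at -0.42 with TMM scaling.

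Among the general subunits in Thy1+ cells, Smc1a was at 137, 107 and 124 CPM in the controls and at 130.8, 103.2 and 131 CPM in the mutants. Stag2 was at 164, 162 and 164 CPM in the controls and at 187.5, 170.5 and 181.5 CPM in the mutants, the only general subunit whose genotypes did not overlap, as for 6.49% of all genes in the higher direction. Rad21, Smc3 and Stag1 overlapped between genotypes, with group means of 444 and 458, 321 and 278, and 235 and 213 CPM in controls and mutants. None of the 5 was called with the block either, where the log2 fold changes of Smc3 and Stag2 were -0.20 and 0.14 (edgeR FDR = 0.00595 and 0.0489).

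The genotype effect was next compared between the populations with an interaction term, coded as the effect in c-Kit+ minus that in Thy1+ cells. No gene of the 18002 tested passed, and the lowest FDR was 0.235. Rad21l had the largest difference of the subunits, -0.88 ± 0.47 (SE, log2; unadjusted p = 0.0817, edgeR FDR = 0.553). The differences were -0.33 ± 0.32 for Stag3, -0.35 ± 0.35 for Smc1b and 0.11 ± 0.24 for Rec8. For each of these the estimate without a block was no larger than about its own SE. With the block, the difference for Rad21l was -0.90 ± 0.24 (SE; edgeR FDR = 0.0633). It was -0.30 ± 0.18 for Stag3, -0.33 ± 0.18 for Smc1b and 0.13 ± 0.17 for Rec8 (edgeR FDR = 0.422, 0.387 and 0.774). None of the 9 subunits reached an unadjusted p below 0.05, against 1.81% of all genes in the lower and 8.21% in the higher direction, and none was called with DESeq2 or with the block, which called 0.133% and 2.34% of all genes.

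SMC1B, the meiotic kleisins and STAG3 stand in for general subunits, so the meiotic genes were also set against their counterparts within each library. These ratios of RPKM do not depend on the scaling between libraries, but they can depend on the mix of cells in a library. In c-Kit+ cells the Sertoli marker sums were 541.1 to 1371 CPM in controls and 2169 to 2377 CPM in mutants. The part of the cell mix in the ratios was not tested. Smc1b to Smc1a was 3.62, 5.39 and 5.11 in c-Kit+ control replicates 1 to 3 and 1.76, 2.45 and 2.21 in the mutants. Stag3 to the sum of Stag1 and Stag2 was 1.34, 1.77 and 1.54 in the controls and 0.715, 0.791 and 0.699 in the mutants. Stag3 therefore exceeded the sum of both general STAG genes in every c-Kit+ control and in no c-Kit+ mutant library, whereas Smc1b exceeded Smc1a in all 6.

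The kleisin ratios were below 1 throughout. Rad21l to Rad21 was 0.128, 0.243 and 0.204 in the c-Kit+ controls and 0.0269, 0.0392 and 0.0314 in the mutants. Rec8 to Rad21 was 0.141, 0.183 and 0.1995 in the controls and 0.0738, 0.0755 and 0.0744 in the mutants. The mean of the controls exceeded that of the mutants by 5.90 times for Rad21l to Rad21 and by 2.34 times for Rec8 to Rad21. Rad21l was thus the higher of the 2 meiotic kleisins in the c-Kit+ control replicates 2 and 3 and the lower one in all 3 c-Kit+ mutants on the RPKM scale.

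In Thy1+ cells, Smc1b to Smc1a was 0.916, 2.48 and 1.62 in the controls and 0.705, 1.504 and 0.879 in the mutants. Stag3 to the sum of Stag1 and Stag2 was 0.6865, 1.059 and 1.009 in the controls and 0.411, 0.717 and 0.491 in the mutants. Both ratios overlapped between genotypes, with each mutant below the control of its own number. Rad21l to Rad21 was 0.0893 ± 0.0383 in the controls and 0.0312 ± 0.00828 in the mutants, and Rec8 to Rad21 was 0.116 ± 0.0188 and 0.0505 ± 0.00706 (SD, n = 3), neither overlapping.

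**Figure D3:**
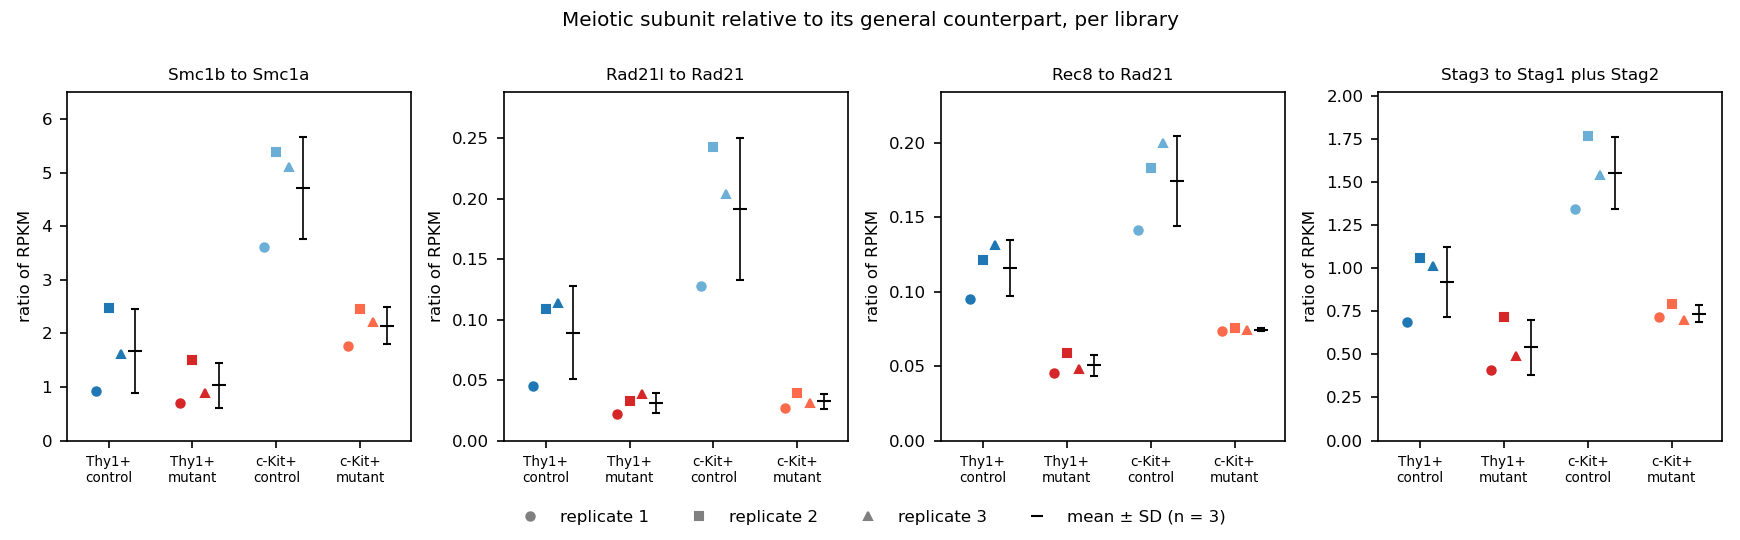
RPKM of a meiotic subunit divided by that of its general counterpart in the same library (vertical axes, from 0), by group and replicate number, with mean and SD of each group of 3. In c-Kit+ cells all 4 ratios are lower in every mutant than in every control, and Stag3 to Stag1 plus Stag2 is 1.55 ± 0.211 in controls and 0.735 ± 0.0492 in mutants.

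The mean log2 RPKM of the 4 meiotic subunits minus that of the 5 general subunits was -0.94 ± 0.46 (SD, n = 3) in Thy1+ controls, -1.90 ± 0.35 in Thy1+ mutants, 0.07 ± 0.25 in c-Kit+ controls and -1.29 ± 0.15 in c-Kit+ mutants. The mutants lay 0.97 lower than the controls in Thy1+ cells and 1.36 lower in c-Kit+ cells on the log2 scale, and the genotypes overlapped in neither population. In Thy1+ cells the lowest control, replicate 1 (-1.46), and the highest mutant, replicate 2 (-1.54), came close to each other.

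The loading, release, acetylation, protection and boundary factors that act on cohesin were examined as a list of 18 regulators, 17 of which were tested in every comparison. Sgo2b had at most 6 reads in any library and was not tested. In c-Kit+ mutants, 4 regulators were called lower and 1 higher, against 7.41% and 14.8% of all genes, and the median log2 fold change over the 17 was -0.26. Most of the regulators, unlike the meiotic subunits, stayed within a log2 fold change of 0.5.

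Ctcfl encodes BORIS, the germ cell paralog of the loop boundary protein CTCF. It was at 13.7, 23.3 and 24.1 CPM in the c-Kit+ controls and at 4.55, 6.16 and 5.01 CPM in the mutants. The genotypes did not overlap, and the log2 fold change was -2.01 ± 0.22 (SE; edgeR FDR = 2.40e-04). The Ctcfl exons overlapped those of an annotated gene on the other strand by 171 bases, and the counting named no strand. Ctcf itself had a log2 fold change of -0.14 ± 0.07 (edgeR FDR = 0.154).

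Nipbl, the cohesin loader, was at 135, 230.1 and 179 CPM in the c-Kit+ controls and at 113, 99.9 and 97.0 CPM in the mutants. Its partner Mau2 differed by -0.16 ± 0.06 on the log2 scale. Nipbl was called lower at -0.87 ± 0.16 (SE; edgeR FDR = 0.00184). Esco2, the acetyltransferase that establishes cohesion during replication, was at 167, 234.7 and 207.5 CPM in the controls and at 119, 122.8 and 115 CPM in the mutants, and was called lower at -0.83 ± 0.11 (edgeR FDR = 4.14e-04). Its paralog Esco1 was at -0.38 ± 0.11 and was not called.

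Espl1, the separase that cleaves kleisins, was at 271, 282 and 253 CPM in the c-Kit+ controls and at 187, 203 and 174 CPM in the mutants, and was called lower at -0.57 ± 0.07 (SE; edgeR FDR = 3.79e-04). With germ cell marker scaling, Nipbl, Esco2 and Espl1 were at -0.46, -0.43 and -0.18 and were not called, while Ctcfl stayed called at -1.62. Hdac8, the deacetylase that recycles SMC3, was the regulator called higher, from 3.20, 4.21 and 3.52 CPM in the controls to 6.23, 5.36 and 6.28 CPM in the mutants. Its log2 fold change was 0.65 ± 0.18 (SE; edgeR FDR = 0.0147), and the call was lost without mutant replicate 1 (FDR = 0.0539) or without mutant replicate 3 (FDR = 0.0567).

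The remaining regulators were not called in c-Kit+ cells. The release factors Wapl, Pds5a and Pds5b had log2 fold changes of -0.07, -0.30 and -0.13, and sororin (Cdca5), which protects cohesion against WAPL, of -0.39. The centromere protectors Sgo1 and Sgo2a were at -0.26 and -0.22, and the separase inhibitor securin (Pttg1) and the kinase Plk1 at 0.16 and -0.18. Meikin, which protects centromeric REC8 in meiosis I, had at most 30 reads in any library and an SE of 0.77 in this comparison.

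In Thy1+ cells none of the 17 regulators was called by edgeR's quasi-likelihood test, and 3 were lower at an unadjusted p below 0.05 (Nipbl, Meikin and Ctcfl), against 7.69% of all genes. Ctcfl was at 4.70, 11.5 and 12.8 CPM in the controls and at 2.50, 4.12 and 2.50 CPM in the mutants. Its log2 fold change was -1.66 ± 0.40 (SE; edgeR FDR = 0.240), and it was the 1 regulator called by the block (FDR = 7.55e-05), by DESeq2, by the exact test and by the fit of all 12 libraries. Nipbl was at 188.5, 188.7 and 188.8 CPM in the controls and at 155.6, 115 and 132 CPM in the mutants, with no overlap and a log2 fold change of -0.48 ± 0.12 (edgeR FDR = 0.240). With the block its log2 fold change was -0.49 (FDR = 7.07e-05), just inside the minimum on the fold change.

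**Figure D4:**
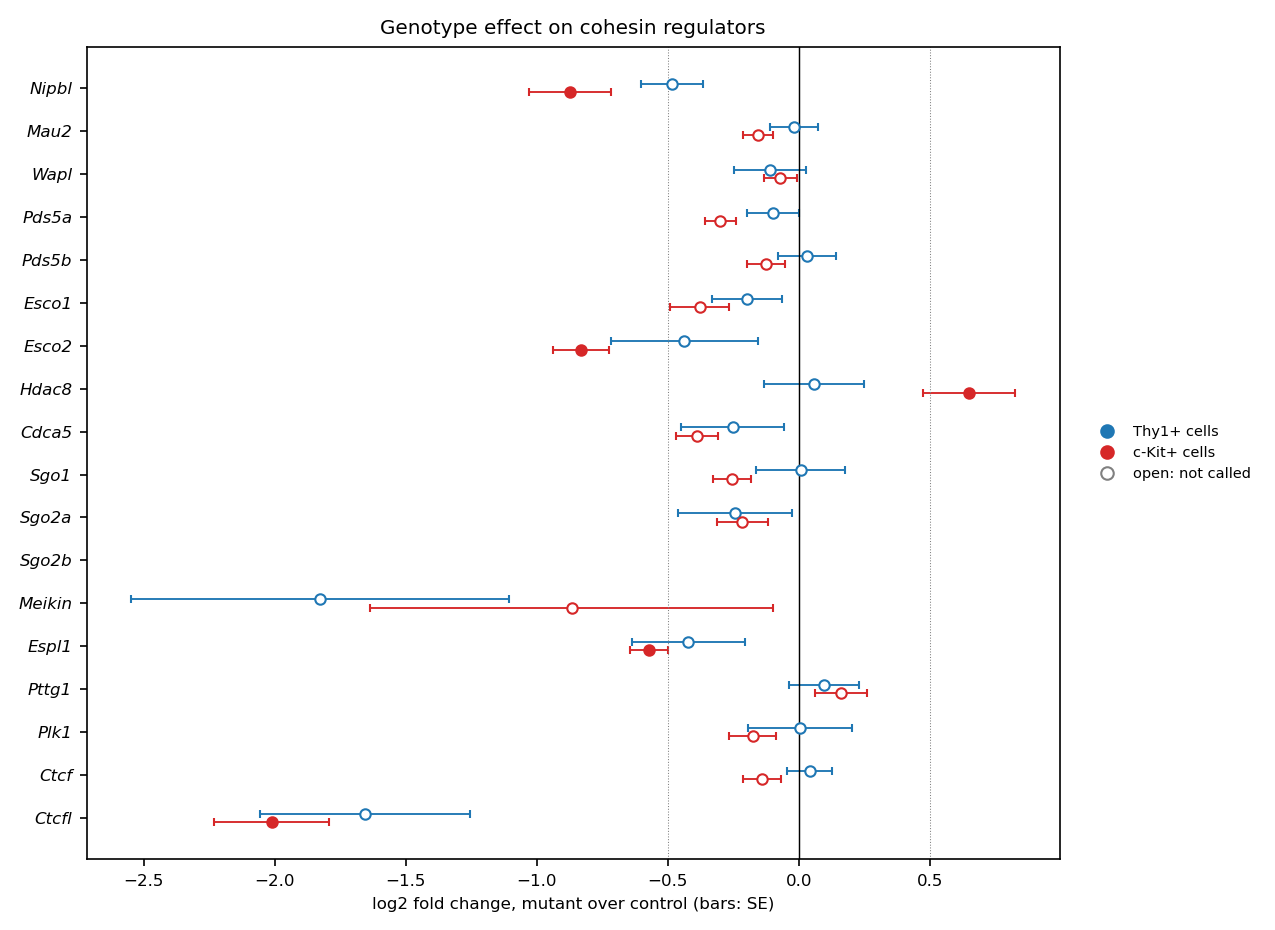
Log2 fold change of mutants over controls (horizontal axis, bars are SE) for the 18 cohesin regulators in Thy1+ and c-Kit+ cells, from edgeR's quasi-likelihood test. Filled points were called. Ctcfl lies at -1.66 and -2.01, Nipbl at -0.48 and -0.87, and Sgo2b has no point because it was not tested.

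The populations were then compared within a genotype, Thy1+ minus c-Kit+. These comparisons use the same libraries as the genotype comparisons and are not independent of them. Per the methods, Thy1+ cells were taken from the flow-through of the c-Kit selection, so both fractions may come from the same suspension. The main tests treated the libraries as unpaired. In controls, all 4 meiotic subunits were called lower in Thy1+ cells, against 7.08% of the 17350 genes tested, with log2 fold changes of -1.21 ± 0.34 (SE) for Rad21l, -0.97 ± 0.26 for Smc1b, -0.85 ± 0.20 for Stag3 and -0.68 ± 0.14 for Rec8 (edgeR FDR = 0.0229, 0.0190, 0.0131 and 0.00774). Smc1a was called higher in Thy1+ cells at 0.59 ± 0.12 (edgeR FDR = 0.00720), against 20.7% of all genes. Smc3, Rad21, Stag1 and Stag2 had log2 differences of -0.15, -0.09, -0.26 and 0.19 and were not called.

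The calls of the population difference in controls depended on single libraries and on the scaling. Without Thy1+ control replicate 3, 2 of the 4 meiotic subunits were called lower, against 1107 of 17648 genes. Without c-Kit+ control replicate 2, 1 was called lower, against 625 of 17710 genes. The main test had called 1229 of 17350 genes lower. The median log2 difference of the 4 subunits was -0.99 and -0.74 in these 2 fits, against -0.91 in the main test. The call of Smc1a was lost without Thy1+ control replicate 1, without c-Kit+ control replicate 3 and with scaling by library size alone. With germ cell marker scaling the median over all genes moved from 0.03 to 0.59 and none of the meiotic subunits was called lower, against 0.421% of all genes, with log2 differences of -0.68 for Rad21l, -0.45 for Smc1b, -0.31 for Stag3 and -0.14 for Rec8. Germ cell markers summed to 1338 to 1960 CPM in Thy1+ controls and to 2145 to 2550 CPM in c-Kit+ controls, and stromal markers to 8302 to 10780 CPM and to 1370 to 1678 CPM. The part of this difference in the population comparison was not tested.

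In mutants, Rec8 and Smc1b were called lower in Thy1+ cells, against 5.03% of the 17346 genes tested, at -0.78 ± 0.18 (SE) and -0.60 ± 0.17 (edgeR FDR = 0.0134 and 0.0315). Stag3 was at -0.49 ± 0.19 (edgeR FDR = 0.0888) and Rad21l at -0.30 ± 0.24 (edgeR FDR = 0.378), and these 2 turned to 0.02 and 0.26 with germ cell marker scaling, which called none of the 4 and 0.369% of all genes. Neither subunit was called without Thy1+ mutant replicate 3 or without c-Kit+ mutant replicate 2, against 338 of 17785 and 359 of 17576 genes called lower. Without Thy1+ mutant replicate 1, 1 was called, against 981 of 17618 genes. Without c-Kit+ mutant replicate 1 or c-Kit+ mutant replicate 3, 1 was called, against 431 of 17786 and 349 of 17766 genes. The main test had called 872 genes lower. Smc1a had a log2 difference of 0.49 ± 0.13 (edgeR FDR = 0.0260), just under the minimum on the fold change.

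**Figure D5:**
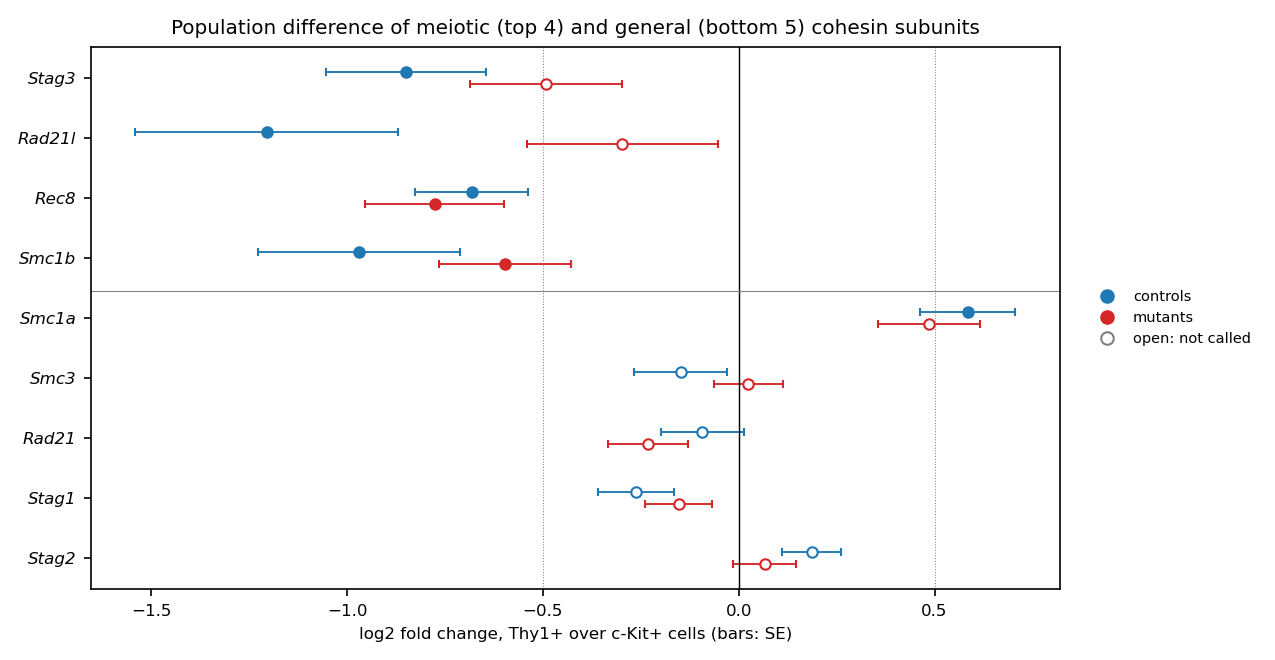
Log2 fold change of Thy1+ over c-Kit+ cells (horizontal axis, bars are SE) for the 9 subunits in controls and in mutants, with TMM scaling. Filled points were called. The meiotic subunits lie between -0.68 and -1.21 in controls and between -0.30 and -0.78 in mutants, where Stag3 and Rad21l turn to 0.02 and 0.26 with germ cell marker scaling.

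Of the 17 regulators, 7 were called lower and 1 higher in Thy1+ than in c-Kit+ controls, against 7.08% and 20.7% of all genes. The 7 were Ctcfl (-1.05 on the log2 scale), Esco2 (-0.96), Plk1 (-0.63), Sgo1 (-0.61), Cdca5 (-0.56), Espl1 (-0.53) and Esco1 (-0.53), and the 1 higher was Hdac8 (1.15). With germ cell marker scaling none was called lower, against 0.421% of all genes, and Esco1 was at 0.02. Leaving out Thy1+ control replicate 1, c-Kit+ control replicate 2 or c-Kit+ control replicate 3 left 4 called lower. In these fits 972 of 17639, 625 of 17710 and 877 of 17746 genes were called lower, fewer than the 1229 of 17350 in the main test. In mutants, Esco2 (-0.61) was the 1 regulator called, against 5.03% of all genes called lower. Its call was lost with germ cell marker scaling (-0.083), in the fit of all 12 libraries (-0.65) and when any library other than Thy1+ mutant replicate 2 was left out (-0.65 to -0.42).

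For each meiotic subunit, the 3 genes with the most similar profile were sought among 13487 genes by the root mean square (RMS) difference of log2 CPM, centred per gene, over the 12 libraries. The genes nearest to Stag3 were Tex16 (RMS 0.0741), 1700001L05Rik (0.0793) and Sycp1 (0.0962). Smc1b was nearest to Iho1 (0.0836), Tex16 (0.106) and Stag3 itself (0.1105), and Rec8 to Gpat2 (0.141), Tex16 (0.164) and Tktl1 (0.168). Tex16 was therefore among the nearest genes of 3 of the 4 subunits. Rad21l was nearest to Inca1 (0.170), Terb2 (0.179) and 1700013H16Rik (0.2045), and none of these was among the 3 nearest genes of another subunit. The median RMS over all candidates was 0.703 for Stag3, 0.711 for Smc1b, 0.723 for Rec8 and 1.15 for Rad21l. The 12 points share their libraries, scaling and somatic content, and the values are a description.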

How the data were processed

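RNA was sequenced from 12 samples, 3 per group. Per the labels and methods, the authors used Trimmomatic 0.39 for trimming and HISAT2 2.1.0 for alignment of read pairs to mm10, and deposited raw read counts per gene from featureCounts; the submitters' processing notes give the first 2 versions. The file header gives featureCounts 2.0.3, a RefSeq exon annotation, and no strand or read pair option, so both mates of a pair are counted. The deposited table also gives exon lengths, used for RPKM. Gene IDs were named from RefSeq; 25275 of 27179 had a symbol.

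The deposited counts were analysed in R 4.3.3 with edgeR 4.0.16: filterByExpr with a minimum count of 10, TMM scaling within each comparison, and the quasi-likelihood test, adjusted by the Benjamini-Hochberg method. The interaction was called at FDR alone. Levels used 1 TMM scaling of all 12 libraries, and log2 values a prior count of 2. edgeR's exact test, the study's choice, and DESeq2 1.42.0 were alternatives, as were other scalings, filters, libraries left out and a replicate block. The tests were checked on simulated counts. Figures used matplotlib 3.10.9.

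The subunits, regulators and marker lists were chosen with earlier results of these data known. The genes named are the 9 subunits, the 18 regulators, the label checks Chd8, Thy1 and Kit, the 3 genes most similar to each meiotic subunit (symbol, mean log2 CPM of at least 1), and markers beside results they touch. The germ cell marker Gcna had no match. Deviations from group means were correlated between libraries of the same replicate number. The values were 0.266 to 0.49 in Thy1+ cells, 0.101 to 0.125 in c-Kit+ cells and 0.134 to 0.298 in controls. Between libraries of different numbers they were -0.384 to -0.0405, -0.0659 to -0.0384 and -0.279 to 0.0867. Because each group was centred on its own mean, these values are tied to those of the same number and are no separate evidence of pairing. All values of the same number passed the limit of 0.1 set for pairing, in c-Kit+ cells only narrowly. These libraries were taken as paired in the replicate block, an alternative, whereas the main tests carried no block. The methods say that mutants were in general compared with littermates, but neither they nor the labels tie a replicate number to a litter or day. Neither the labels nor the methods say whether a replicate was 1 pup, a pool or a part of one, so p-values measure only the spread between these samples, which may be technical.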

Additional observations from a re-analysis of the deposited data

How the results depend on the processing

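The 4 meiotic subunits were called lower in c-Kit+ mutants under all 16 alternatives run, with log2 fold changes of -2.61 to -2.00 for Rad21l, -1.32 to -0.78 for Stag3, -1.27 to -0.70 for Smc1b and -1.18 to -0.68 for Rec8. In Thy1+ cells, where the main test called none, 2 were called lower by DESeq2 and by the exact test, 1 by the fit of all 12 libraries and 4 with the replicate block, and 1 regulator, Ctcfl, by each of these 4. The mean log2 RPKM difference of meiotic and general subunits between c-Kit+ genotypes was -0.86 with medians over subunits in place of means. The number of reads limits Meikin and Sgo2b, and in Thy1+ cells Stag3 and Smc1b were called with the block alone. Apart from the Thy1+ counts just given, the block changed no call of a subunit in the genotype comparisons or in controls; in mutants, where the numbers were not found to pair the samples (correlations of 0.0211 to 0.204), it gave 3 meiotic subunits and 3 regulators lower, against 1186 of 17346 genes. The cause of the changes given here was not tested.

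In c-Kit+ cells, leaving out the minimum fold gave 2 general subunits lower and 1 higher and 8 regulators lower. Germ cell marker scaling gave 2 general subunits higher and 1 regulator lower and 2 higher, and leaving out 1 library gave 0 to 1 regulators higher. Over all 17134 genes, no minimum fold gave 3139 lower and 3571 higher, and germ cell marker scaling 415 lower and 5877 higher. Leaving out 1 library gave 2087 to 2735 genes higher, against 2542 in the main test. In controls (Thy1+ minus c-Kit+), germ cell marker scaling gave 0 meiotic subunits lower, 2 general subunits higher and 0 regulators lower and 4 higher. Scaling by library size gave 0 general subunits higher. Leaving out 1 library gave 1 to 4 meiotic subunits lower, 0 to 1 general subunits higher and 4 to 6 regulators lower. Over all genes in controls, the main test called 1229 of 17350 lower and 3594 higher. Germ cell marker scaling called 73 lower and 7313 higher, and scaling by library size 3252 higher. With 1 library left out, 625 to 2002 genes were lower and 2917 to 3645 higher. In mutants, meiotic subunits called lower numbered 0 with germ cell marker scaling, 1 with all 12 libraries and 0 to 3 with 1 library left out. General subunits called higher there numbered 1 with germ cell marker scaling, 1 without the minimum fold and 0 to 1 with 1 library left out. Regulators called lower there numbered 2 with DESeq2, 2 with the exact test, 5 with scaling by library size and 0 with germ cell marker scaling. They numbered 2 with all 12 libraries, 3 without the minimum fold and 0 to 7 with 1 library left out. Regulators called higher numbered 1 with DESeq2, 3 with germ cell marker scaling, 1 without the minimum fold and 0 to 2 with 1 library left out. Over all genes in mutants, 872 of 17346 were called lower in the main test. DESeq2 gave 1159, the exact test 1213 and scaling by library size 1390. Germ cell marker scaling gave 64, all 12 libraries 1169, no minimum fold 1534 and 1 library left out 338 to 1788. Higher were 2653 in the main test, 2840 with DESeq2 and 5249 with germ cell marker scaling. They were 3209 without the minimum fold and 1982 to 3229 with 1 library left out.

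Values that changed sign, on the log2 scale, were not called in the main test except for Esco1 in controls. With germ cell marker scaling, which moves all genes up by about 0.4 to 0.6, they were in Thy1+ cells Smc1a 0.38, Smc3 0.18, Stag1 0.24, Mau2 0.36, Wapl 0.25, Pds5a 0.28, Esco1 0.18, Cdca5 0.099 and Sgo2a 0.11. In c-Kit+ cells they were Stag1 0.11, Mau2 0.24, Wapl 0.33, Pds5a 0.095, Pds5b 0.27, Esco1 0.023, Cdca5 0.0044, Sgo1 0.14, Sgo2a 0.18, Plk1 0.21 and Ctcf 0.25. In controls they were Smc3 0.40, Rad21 0.45, Stag1 0.28, Mau2 0.52, Wapl 0.36, Pds5a 0.24, Pds5b 0.53, Esco1 0.019, Sgo2a 0.30 and Ctcf 0.42, and in mutants Stag3 0.022, Rad21l 0.26, Rad21 0.34, Stag1 0.42, Wapl 0.2907, Pds5a 0.4203, Esco1 0.1735, Cdca5 0.0703, Sgo1 0.1558, Sgo2a 0.2218, Espl1 0.113, Plk1 0.0396 and Ctcf 0.5893. With scaling by library size they were Pds5b -0.0042, Plk1 -0.027 and Sgo1 -0.025 in Thy1+ cells, Nipbl -0.0049 in controls, and Smc3 -0.058, Stag2 -0.018, Mau2 -0.0465 and Pds5b -0.0085 in mutants. Plk1 in Thy1+ cells was at -0.0012 without a filter, -0.0010 with the CPM filter, -0.0029 with all 12 libraries, -0.0047 with the block and -0.035 without both replicate 1 libraries, where Smc1a was at 0.024, and with all 12 libraries Smc3 and Mau2 in mutants were at -0.018 and -0.0027. Ctcf in mutants was at 2e-04 with DESeq2 and with its size factors and at 0.0056 without a filter. With 1 library left out, the ranges in Thy1+ cells were -0.087 to 0.078 for Smc1a, -0.058 to 0.14 for Rad21, -0.052 to 0.0056 for Mau2, -0.052 to 0.087 for Pds5b, -0.13 to 0.14 for Hdac8, -0.15 to 0.13 for Sgo1, -0.0076 to 0.18 for Pttg1 and -0.23 to 0.10 for Plk1. The range was -0.079 to 0.12 for Smc1a in c-Kit+ cells, -0.12 to 0.29 for Nipbl, -0.14 to 0.033 for Pds5b and -0.29 to 0.53 for Meikin in controls, and -0.038 to 0.083 for Smc3 and -0.0379 to 0.0329 for Ctcf in mutants. For the interaction it was -0.094 to 0.34 for Rec8, -0.0057 to 0.19 for Smc1a, -0.0090 to 0.24 for Rad21, -0.0756 to 0.2289 for Wapl, -0.2954 to 0.1263 for Cdca5, -0.1613 to 0.3238 for Sgo2a, -0.344 to 0.121 for Espl1, -0.2806 to 0.099 for Plk1 and -0.5543 to 0.0354 for Ctcfl.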
